A study of Mus musculus with 12 samples.

Results

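The 9 enzymes described here carry HMG-CoA production and the steps from mevalonate to lanosterol: Hmgcs1, Mvk, Pmvk, Mvd, Idi1, Fdps, Fdft1, Sqle and Lss. They were chosen by their place in the pathway, with earlier results of these data known. They are 9 of the 47729 genes counted in each liver. All 9 passed the filter on low counts and stand among the 16823 genes tested.

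This pathway builds the carbon skeleton of cholesterol. HMG-CoA synthase joins acetyl groups into HMG-CoA, from which mevalonate is made, and the enzymes that follow phosphorylate mevalonate, split off carbon dioxide, join the resulting isoprene units into farnesyl diphosphate, couple farnesyl diphosphate into squalene, and close squalene into lanosterol, the first sterol. The liver is a main site of this synthesis, and the transcription factor SREBP2 is known to drive the genes of the pathway when sterols in the cell are low.

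RNA was sequenced from the livers of 12 male C57BL/6 mice, 4 in each of 3 groups. STAM mice model non-alcoholic steatohepatitis (NASH): they received streptozotocin, a toxin of pancreatic beta cells, at 2 days of age, and a high-fat diet with 60% of its energy from fat from 4 weeks of age. The STAM_treated mice received oral I-BET151 (GSK1210151A), an inhibitor of the BET bromodomain proteins that read acetylated histones, at 10 mg/kg in 1 dose per day from 6 to 9 weeks of age, and the STAM_vehicle mice received vehicle over that time. The Naive_vehicle mice had neither streptozotocin nor the high-fat diet and received vehicle. Streptozotocin or diet alone was not among the groups, so their parts in any difference from naive mice cannot be told apart. The methods of the study describe the inhibitor as suspended in hydroxypropyl methylcellulose with a Tween detergent and the vehicle as methylcellulose, so the treated group also differs from its control by the suspension. Each sample was 1 mouse, and the p-values measure the spread between these mice. In whole liver RNA, fewer cells of a type and less RNA per cell cannot be told apart.

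The libraries held between 34711229 and 53365596 counted reads. I-BET151 mouse 3 stood apart from the other 11 mice: its 10 most abundant genes took 7.95% of its reads against 13.5% to 18.0% elsewhere, its mitochondrial share was 2.71% against 4.51% to 7.30%, and its TMM scaling factor was 1.61 against 0.77 to 1.11. Its summed level of 6 hepatocyte markers (Alb, Apoa1, Ttr, Tat, Cps1 and Hnf4a) was 18890 CPM (reads of a gene scaled to a common library size, after TMM normalisation), against 65760 to 82510 in the other 3 I-BET151 mice, 49460 to 70440 in STAM vehicle mice and 99860 to 118200 in naive mice. The study's methods left out 1 STAM I-BET151 sample and do not say which. The stated reason is that its gene counts were low. I-BET151 mouse 3 had the fewest counted reads of all mice, 34711229, but the most genes with a count, 24304. I-BET151 mouse 2 had 35171038 counted reads and the fewest genes with a count in its group, 22293. The sample left out therefore cannot be told from these values. All 4 I-BET151 mice are kept here. For the enzymes of this report, the edgeR result without mouse 3 is also given where that changes a call. Tests of the other gene lists and of the cell markers are given only with mouse 3 kept. Over all tested genes, leaving it out raised the calls of I-BET151 against vehicle from 59 to 403. Whether calls in those lists change without it was not tested.

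The promoters below are shown because their genes fell together after I-BET151 or, for Pmvk, because it had the smallest fitted change after I-BET151. RefSeq promoter sequences (GRCm38.p6) were found for 6 of the 9 genes and not for Fdps, Fdft1 and Sqle. Each line below gives the 250 bases before the RefSeq start site, 5′ to 3′ on the gene's strand. Capitals mark matches to CACNCCAC, the core of a sterol regulatory element, and to CCAAT, the box of the factor NF-Y, or its reverse complement ATTGG. The regions are chr13:119690101-119690350 on the plus strand for Hmgcs1, chr8:122443423-122443672 on the minus strand for Mvd, chr13:8885356-8885605 on the plus strand for Idi1 and chr3:89454291-89454540 on the plus strand for the upstream of the 2 Pmvk starts in the table.
Hmgcs1: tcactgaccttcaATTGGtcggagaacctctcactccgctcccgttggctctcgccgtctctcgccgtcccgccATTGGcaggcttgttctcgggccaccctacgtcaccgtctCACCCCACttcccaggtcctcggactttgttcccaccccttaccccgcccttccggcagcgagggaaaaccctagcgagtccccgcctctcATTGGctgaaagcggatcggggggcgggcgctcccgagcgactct
Mvd: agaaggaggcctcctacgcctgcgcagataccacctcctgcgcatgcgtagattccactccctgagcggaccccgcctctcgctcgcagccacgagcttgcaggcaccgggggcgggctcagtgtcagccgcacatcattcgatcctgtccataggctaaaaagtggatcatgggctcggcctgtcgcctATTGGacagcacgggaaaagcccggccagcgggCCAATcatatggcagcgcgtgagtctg
Idi1: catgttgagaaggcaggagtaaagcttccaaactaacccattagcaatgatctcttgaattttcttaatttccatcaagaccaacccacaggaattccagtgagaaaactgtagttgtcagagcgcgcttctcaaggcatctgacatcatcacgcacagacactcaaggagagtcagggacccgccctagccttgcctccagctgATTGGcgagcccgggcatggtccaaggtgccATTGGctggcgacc
Pmvk: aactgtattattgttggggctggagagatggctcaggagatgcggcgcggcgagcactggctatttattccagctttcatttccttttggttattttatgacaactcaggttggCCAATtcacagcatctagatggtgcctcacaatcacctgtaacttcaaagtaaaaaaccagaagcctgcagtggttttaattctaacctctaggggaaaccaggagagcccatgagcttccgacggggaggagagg

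Motifs were searched on both strands of the 300 bases from 250 before to 50 after each start. Hmgcs1 held 1 match to CACNCCAC, at positions −136 to −129 from its start, which lies inside a match to the longer TCACNCCAC. The other 5 genes with a promoter entry held no match to these letters, which says nothing about the factor. Of all 32851 promoters in the table, 6.24% held CACNCCAC and 1.24% held TCACNCCAC. CCAAT was found 4 times in Hmgcs1, 5 times in Mvk, 2 times in Mvd, 2 times in Idi1, 1 time in Lss and 1 time in the upstream Pmvk promoter, and 37.4% of all promoters held it. GGGCGG, the Sp1 box, was found 3 times in Hmgcs1, 2 times in Mvk, 2 times in Lss, 1 time in Mvd and 1 time in Idi1, and 35.7% of all promoters held it. These matches describe the sequence and are not measured binding sites.

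The comparison of STAM vehicle with naive livers asks what the NASH model did to these transcripts. Mvd, which makes isopentenyl diphosphate, rose 2.44-fold and was the only 1 of the 9 enzymes past the threshold (adjusted p of at most 0.05), where 5.72% of all tested genes were called higher. Fdps and Lss were also higher in every STAM vehicle mouse than in every naive mouse but did not pass the test. With Mvd they made 3 of 9 enzymes whose groups did not overlap, against 14.2% of all tested genes in that direction. The other 6 enzymes overlapped between the groups, and the median fitted change of the 9 was 0.33 on the log2 scale, against 0.01 over all tested genes. Without I-BET151 mouse 3, which is in neither group but enters the scaling and the shared estimate of spread, 3 enzymes were called, Mvd, Fdps and Lss, but that fit called 22.27% of all tested genes in either direction.

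The comparison of I-BET151 with vehicle in STAM mice asks what BET inhibition did in the diseased liver. Hmgcs1, Mvd, Idi1 and Sqle fell past the threshold (adjusted p of at most 0.1), to between 0.290 and 0.448 of the vehicle level. These 4 of 9 stand against 0.256% of all tested genes called lower. All 9 enzymes had a lower fitted level, against 46.1% of all tested genes. This direction held under all 198 alternative values computed for the 9. Those values are refits of the same mice, so they are not separate observations. In 6 of 9 (Hmgcs1, Mvk, Mvd, Idi1, Fdft1 and Sqle) every I-BET151 mouse was below every vehicle mouse, against 2.63% of all tested genes. The median fitted change of the 9 was −1.02 on the log2 scale, against 0.02 over all tested genes. The calls were less firm than the direction: without I-BET151 mouse 3, 7 enzymes were called, in a fit that called 2.375% of all tested genes, and without STAM vehicle mouse 4 or without I-BET151 mouse 1, none was, in fits that called 0.0762% of all tested genes each. DESeq2 called 8 enzymes and 1.48% of all genes it tested. With the replicate or the lane number in the model, with only the 2 compared groups, or with scaling by total counts alone, edgeR called 0. Each of these edgeR fits called at most 0.0594% of all tested genes.

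The comparison of I-BET151-treated STAM livers with naive livers asks where the treated livers stood relative to healthy ones. Hmgcs1, Idi1 and Sqle were below the naive level past the threshold (adjusted p of at most 0.05), 3 of 9 against 5.25% of all tested genes called lower. In 5 of 9 (these 3, Mvk and Fdft1) every treated mouse was below every naive mouse, against 8.85% of all tested genes. The median fitted change was −0.37 on the log2 scale, against 0.06 over all tested genes. The 3 comparisons share mice, so their values are set side by side below and are not independent of each other.

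**Figure D1:**
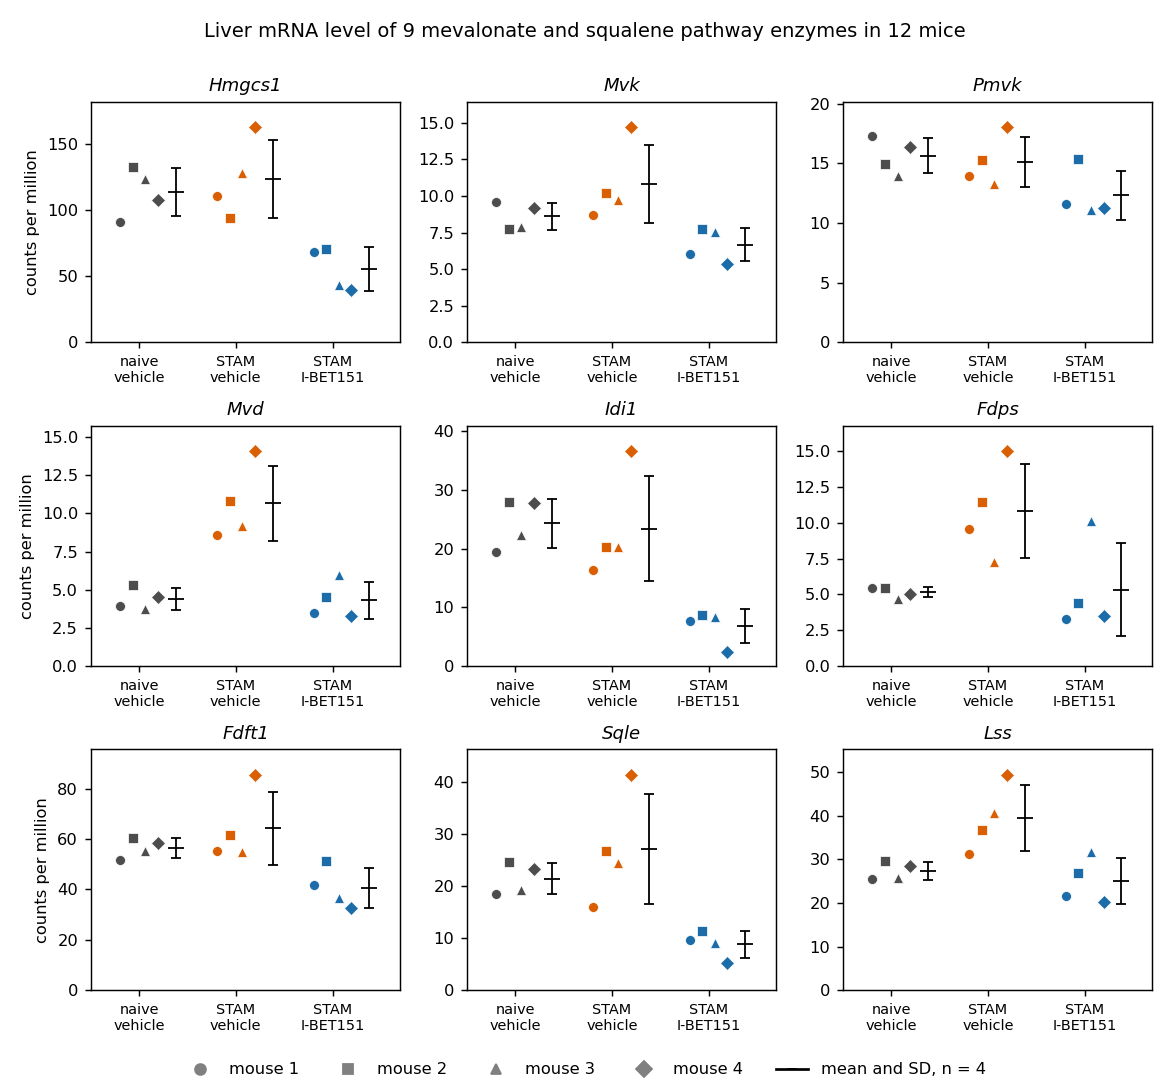
Each panel plots 1 enzyme in CPM (axis from 0) for the 4 mice of each group, with the group mean and SD beside the points. Idi1 lies between 2.44 and 8.65 CPM in the I-BET151 mice and between 16.4 and 36.6 in the vehicle mice, and vehicle mouse 4 is the highest of its group in all 9 panels.

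Hmgcs1 (ENSMUSG00000093930, chr13:119690379-119708260, plus strand, mm10) encodes the cytosolic synthase that makes HMG-CoA. Hmgcs1 stood at 91.4, 133, 124 and 108 CPM in naive mice 1 to 4, at 111, 93.8, 128 and 163 CPM in STAM vehicle mice 1 to 4 and at 68.2, 70.9, 43.0 and 39.5 CPM in I-BET151 mice 1 to 4. The 4 I-BET151 mice were below all 8 others, while the vehicle and naive mice overlapped. Group means were 114 ± 18.2 in naive, 124 ± 29.5 in vehicle and 55.4 ± 16.4 CPM in I-BET151 mice (SD, n = 4). Hmgcs1 fell by 1.16 on the log2 scale after I-BET151 relative to vehicle (SE 0.22, edgeR adjusted p = 0.0648) and fell by 1.04 relative to naive (SE 0.22, edgeR adjusted p = 0.00903). Vehicle differed from naive by 0.12 (95% interval −0.36 to 0.60, edgeR adjusted p = 0.796). The call against vehicle was the least firm of the 4, since it was kept in only 5 of the 12 fits that left out 1 mouse, with adjusted p between 0.0506 and 0.234, and was lost without naive mouse 3 or 4, vehicle mouse 1, 3 or 4, or I-BET151 mouse 1 or 4.

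Mvk (ENSMUSG00000041939, chr5:114444269-114460591, plus strand) encodes mevalonate kinase, which adds the first phosphate. Mvk stood at 9.62, 7.74, 7.91 and 9.17 CPM in naive mice, at 8.68, 10.2, 9.73 and 14.7 CPM in vehicle mice and at 6.05, 7.71, 7.57 and 5.38 CPM in I-BET151 mice. Every I-BET151 mouse was below every vehicle mouse, and the highest of them was also just below the lowest naive mouse. The fitted difference from vehicle was −0.70 (95% interval −1.09 to −0.31, edgeR adjusted p = 0.196), which did not pass the threshold with all 12 mice. Without I-BET151 mouse 3 it was −0.76 with adjusted p = 0.0825, a call. Against naive mice the difference was −0.37 (95% interval −0.76 to 0.02), and between vehicle and naive mice it was 0.33 (95% interval −0.06 to 0.72).

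Pmvk (ENSMUSG00000027952, chr3:89454541-89469013, plus strand) encodes phosphomevalonate kinase, which adds the second phosphate. Pmvk stood at 17.3, 15.0, 13.9 and 16.4 CPM in naive mice, at 13.9, 15.2, 13.3 and 18.0 CPM in vehicle mice and at 11.6, 15.4, 11.1 and 11.2 CPM in I-BET151 mice. The groups overlapped through I-BET151 mouse 2, and the other 3 treated mice were below every vehicle and naive mouse. The fitted difference of I-BET151 from vehicle was −0.30 (95% interval −0.60 to 0.01, edgeR adjusted p = 0.590), the smallest of the 9. It was not called in any of the 12 fits that left out 1 mouse. Vehicle differed from naive by −0.05 (95% interval −0.36 to 0.25), and I-BET151 from naive by −0.35 (95% interval −0.65 to −0.04, edgeR adjusted p = 0.111).

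Mvd (ENSMUSG00000006517, chr8:122433601-122443422, minus strand) encodes mevalonate diphosphate decarboxylase, whose product isopentenyl diphosphate is the first isoprene unit. Mvd stood at 3.92, 5.32, 3.72 and 4.51 CPM in naive mice, at 8.61, 10.8, 9.19 and 14.1 CPM in vehicle mice and at 3.50, 4.55, 5.95 and 3.29 CPM in I-BET151 mice. The vehicle mice were above all 8 others, while the naive and I-BET151 mice overlapped. Mean levels were 4.37 ± 0.72 in naive, 10.7 ± 2.45 in vehicle and 4.32 ± 1.22 CPM in I-BET151 mice (SD, n = 4). Mvd rose by 1.29 on the log2 scale in vehicle relative to naive mice (SE 0.22, edgeR adjusted p = 0.00381), and this call was kept in all 12 fits that left out 1 mouse. With lane in the model the difference was 1.46 and no longer a call (edgeR adjusted p = 0.259). Mvd fell by 1.30 after I-BET151 relative to vehicle (SE 0.22, edgeR adjusted p = 0.0366). That call was kept in 9 of the 12 fits and lost without vehicle mouse 2, vehicle mouse 4 or I-BET151 mouse 1, with adjusted p between 0.0076 and 0.133. I-BET151 mice differed from naive by −0.01 (95% interval −0.49 to 0.46), a fitted sign that turned under several settings.

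Idi1 (ENSMUSG00000058258, chr13:8885501-8892451, plus strand) encodes the isomerase that turns isopentenyl into dimethylallyl diphosphate. Idi1 stood at 19.5, 27.9, 22.3 and 27.8 CPM in naive mice, at 16.4, 20.2, 20.3 and 36.6 CPM in vehicle mice and at 7.76, 8.65, 8.28 and 2.44 CPM in I-BET151 mice. The I-BET151 mice were below all 8 others, with mouse 4 far below its 3 companions, and the naive and vehicle mice overlapped. Idi1 fell by 1.79 on the log2 scale relative to vehicle (SE 0.34, edgeR adjusted p = 0.05535), the largest change of the 9, and fell by 1.84 relative to naive (SE 0.34, edgeR adjusted p = 0.00402). Without I-BET151 mouse 4 the differences were −1.51 from vehicle (adjusted p = 0.054) and −1.57 from naive. The call against vehicle was lost without vehicle mouse 2, vehicle mouse 4 or I-BET151 mouse 1, with adjusted p between 0.0384 and 0.175, and the call against naive was kept in all 12 fits. Vehicle differed from naive by −0.06 (95% interval −0.76 to 0.64). The processed pseudogenes Gm13502 and Gm35570 match Idi1 transcripts at 100% and 97.7% identity over 684 and 681 bases, so reads from these stretches may have been assigned elsewhere or left uncounted.

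Fdps (ENSMUSG00000059743, chr3:89093588-89101959, minus strand) encodes farnesyl diphosphate synthase, at the branch from which sterols, dolichol, ubiquinone and protein prenylation are supplied. Fdps stood at 5.43, 5.43, 4.71 and 5.03 CPM in naive mice, at 9.54, 11.4, 7.27 and 15.0 CPM in vehicle mice and at 3.28, 4.398, 10.1 and 3.47 CPM in I-BET151 mice. Every vehicle mouse was above every naive mouse, and I-BET151 mouse 3 lay among the vehicle mice while the other 3 treated mice lay below every naive mouse. The fitted difference of vehicle from naive was 1.07 (95% interval 0.37 to 1.77, edgeR adjusted p = 0.0647), and that of I-BET151 from vehicle was −1.02 (95% interval −1.71 to −0.32, edgeR adjusted p = 0.337). Both depended on 1 library: without I-BET151 mouse 3 they were 1.05 with adjusted p = 0.00337 and −1.54 with adjusted p = 0.00833, both calls. Against naive mice the I-BET151 difference was 0.05 (95% interval −0.65 to 0.75) with mouse 3 and −0.49 (adjusted p = 0.121) without it. The Fdps level is uncertain, because 85.9% of its coding bases are shared with the same-strand gene model Gm43738, which received 1 read in the 12 mice, and because the pseudogenes Gm5873, Gm3571 and Gm8163 match it at 96.7%, 98.9% and 96.1% identity.

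Fdft1 (ENSMUSG00000021273, chr14:63145150-63179578, minus strand) encodes squalene synthase, the first step committed to sterols. Fdft1 stood at 51.5, 60.6, 55.1 and 58.5 CPM in naive mice, at 55.3, 61.6, 54.7 and 85.3 CPM in vehicle mice and at 41.7, 51.4, 36.5 and 32.7 CPM in I-BET151 mice. All I-BET151 mice were below all vehicle and naive mice, the highest treated mouse just under the lowest naive mouse. The fitted difference from vehicle was −0.66 (95% interval −1.03 to −0.30, edgeR adjusted p = 0.185) and from naive −0.48 (95% interval −0.84 to −0.11, edgeR adjusted p = 0.0704), neither past its threshold. Leaving out I-BET151 mouse 2, the highest of the treated mice, gave calls in both, at −0.80 (adjusted p = 0.0846) and −0.61 (adjusted p = 0.0227), and leaving out vehicle mouse 4 also gave a call against naive. Vehicle differed from naive by 0.19 (95% interval −0.17 to 0.55). Exons of Fdft1 and of Ctsb, on the opposite strand, share 774 bases, and the counting is not stated to use strand.

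Sqle (ENSMUSG00000022351, chr15:59315077-59331192, plus strand) encodes squalene epoxidase, a rate-limiting oxygen-dependent step. Sqle stood at 18.4, 24.6, 19.3 and 23.2 CPM in naive mice, at 15.9, 26.8, 24.5 and 41.4 CPM in vehicle mice and at 9.69, 11.3, 9.09 and 5.22 CPM in I-BET151 mice. The I-BET151 mice were below all 8 others, and the vehicle mice spanned the whole naive range. Means were 21.4 ± 2.98 in naive, 27.1 ± 10.6 in vehicle and 8.83 ± 2.59 CPM in I-BET151 mice (SD, n = 4). Sqle fell by 1.62 on the log2 scale relative to vehicle (SE 0.27, edgeR adjusted p = 0.0366) and fell by 1.28 relative to naive (SE 0.27, edgeR adjusted p = 0.00817). Of the 4 calls against vehicle it was kept most often, in 10 of the 12 fits, and was lost without vehicle mouse 4 or I-BET151 mouse 1, with adjusted p between 0.0232 and 0.133. Vehicle differed from naive by 0.34 (95% interval −0.22 to 0.91).

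Lss (ENSMUSG00000033105, chr10:76531588-76557138, plus strand) encodes lanosterol synthase, which closes the rings of the first sterol. Lss stood at 25.6, 29.7, 25.7 and 28.5 CPM in naive mice, at 31.4, 36.8, 40.7 and 49.3 CPM in vehicle mice and at 21.5, 26.8, 31.8 and 20.3 CPM in I-BET151 mice. Every vehicle mouse was above every naive mouse, and I-BET151 mouse 3 reached just above the lowest vehicle mouse while the other 3 were below all of them. The fitted difference of vehicle from naive was 0.53 (95% interval 0.18 to 0.88, edgeR adjusted p = 0.0669) and that of I-BET151 from vehicle −0.66 (95% interval −1.01 to −0.30, edgeR adjusted p = 0.168). Without I-BET151 mouse 3 both were calls, at 0.51 (adjusted p = 0.0186) and −0.78 (adjusted p = 0.0319), and without vehicle mouse 1 the first was also a call. I-BET151 mice differed from naive by −0.12 (95% interval −0.48 to 0.23). An antisense gene on the opposite strand shares 381 exon bases with Lss.

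**Figure D2:**
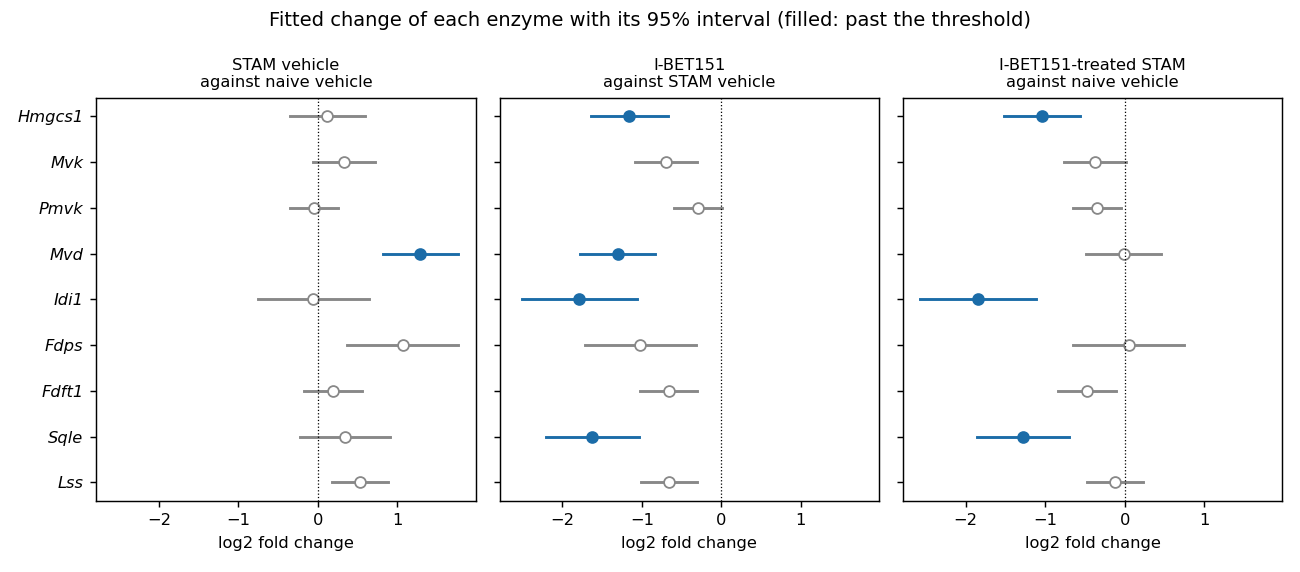
Points give the fitted log2 fold change of each enzyme and lines its 95% interval, in 1 panel for each comparison, with filled symbols past the threshold. Mvd is filled at 1.29 in the first panel, and Hmgcs1, Mvd, Idi1 and Sqle are filled between −1.16 and −1.79 in the second.

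The 9 enzymes were not equally abundant. Per kilobase of exon, naive livers held the most Hmgcs1 at 24.8 ± 3.97 CPM per kb, then Fdft1 at 13.4 ± 0.94, Pmvk at 9.13 ± 0.87 and Idi1 at 6.95 ± 1.19 (SD, n = 4). Sqle at 3.86, Mvk at 3.22, Lss at 2.54 and Mvd at 2.35 followed, and Fdps was lowest at 1.22 CPM per kb. The place of Fdps in this order is as uncertain as its level, because of the shared coding bases and pseudogenes named above. In naive livers only Sqle and Mvk, and Lss and Mvd, overlapped as neighbours in this order. In STAM vehicle livers Hmgcs1, Fdft1 and Pmvk again led, at 26.9, 15.2 and 8.82 CPM per kb, Mvd was the fifth at 5.74, and each enzyme from Pmvk down overlapped with its neighbour. In I-BET151 livers Hmgcs1 stood at 12.1, Fdft1 at 9.60 and Pmvk at 7.19, Idi1 was the seventh at 1.94 and Sqle the eighth at 1.59 CPM per kb, and only Pmvk and the next enzyme, Mvk, did not overlap. The choice of gene length sets part of this order: per kilobase of coding sequence, Idi1 was above Pmvk in naive livers (26.6 and 24.4 CPM per kb, overlapping) and Mvd rather than Fdps was lowest (3.38 and 3.94, overlapping).

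**Figure D3:**
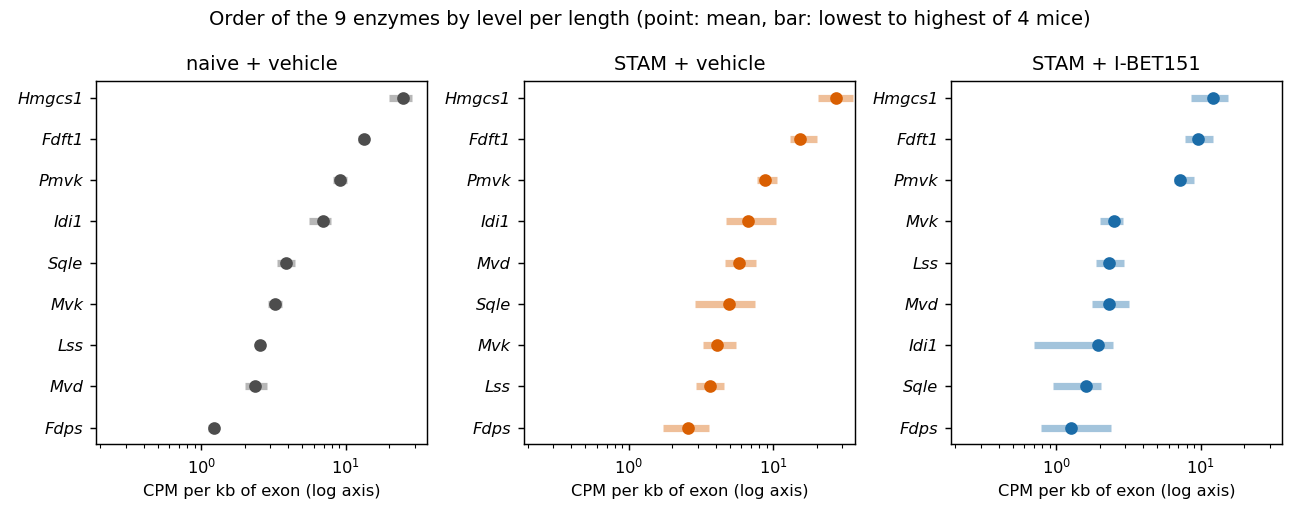
Points are group means and bars the range of 4 mice, in CPM per kb of exon on a log axis, with the enzymes sorted within each group. Hmgcs1, Fdft1 and Pmvk lead all 3 groups, and Idi1 is the fourth at 6.95 CPM per kb in naive mice and the seventh at 1.94 in I-BET151 mice.

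The spread between mice was smallest in naive livers. The coefficient of variation of the 9 enzymes had a median of 10.8% (6.76% to 17.1%) in naive mice, 23.8% (13.9% to 39.0%) in vehicle mice and 28.2% (16.6% to 61.0%) in I-BET151 mice. STAM vehicle mouse 4 was the highest vehicle mouse for all 9 enzymes, whereas 19.8% of all tested genes were highest there. Removing that mouse gave the smallest fitted fall after I-BET151 for each of the 9, for example −1.48 for Idi1, −1.34 for Sqle, −1.14 for Mvd and −0.997 for Hmgcs1. I-BET151 mouse 4 was the lowest treated mouse for 7 of 9 enzymes, against 17.4% of all tested genes, and the exceptions were Pmvk and Fdps. I-BET151 mouse 2 was the highest treated mouse for 6, against 25.6% of all tested genes. Mouse 3 was the highest for the other 3: Mvd, Fdps and Lss. In mouse 3 Hmgcs1, Mvk, Pmvk, Idi1, Fdft1 and Sqle were below every naive and vehicle mouse, and Mvd, Fdps and Lss were above every naive mouse. Over all tested genes mouse 3 was the highest treated mouse for 42.3% and the lowest for 39.3%. Its split among the 9 enzymes is therefore not shown to be particular to them.

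**Figure D4:**
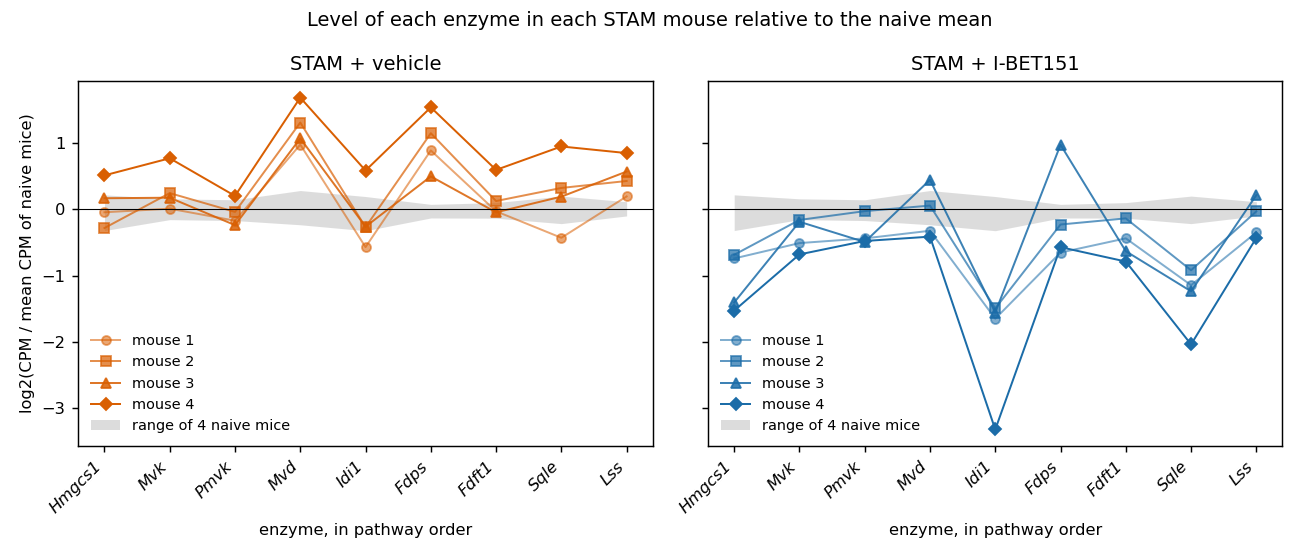
Each line is 1 STAM mouse, plotted as log2 of its CPM over the naive mean for the enzymes in pathway order, with the range of the 4 naive mice shaded. Mvd is the highest point of all 4 vehicle lines and Idi1 the lowest of all 4 I-BET151 lines, and I-BET151 mouse 3 reaches 10.1 CPM at Fdps where the other 3 treated mice lie between 3.28 and 4.398.

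**Figure D5:**
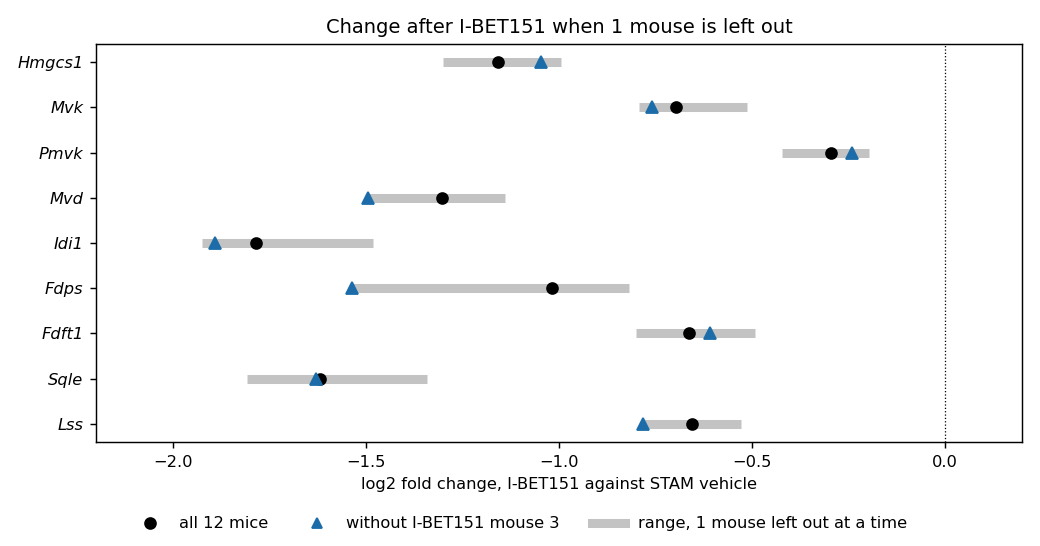
Circles give the fitted log2 fold change of I-BET151 against vehicle with all 12 mice, triangles the value without I-BET151 mouse 3, and bars the range over 12 fits that each leave out 1 mouse. No bar reaches 0, the nearest being Pmvk at −0.20, and Fdps moves most, from −1.02 to −1.54 without mouse 3.

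Sequencing lane was compared as far as the layout allowed. Lane is not given in the sample labels and was read from a field (L and a number) in the names of the deposited tables, which by the usual naming of Illumina reads is the lane. By this reading 1 I-BET151 and 1 vehicle mouse were in each of 3 lanes. For 8 of the 9 enzymes the treated mouse was lower in all 3 lanes. For Hmgcs1, Mvk, Mvd, Idi1, Fdft1 and Sqle any pairing had to give this, because their groups did not overlap. For them the direction within lanes is therefore no separate check on lane. Within-lane differences on the log2 scale ran from −3.88 to −1.08 for Idi1 and from −2.98 to −0.71 for Sqle. They ran from −2.08 to −0.62 for Mvd and from −2.04 to −0.70 for Hmgcs1. The largest fall of each of these was in the lane of vehicle mouse 4 and I-BET151 mouse 4. For these enzymes that pair was the highest vehicle mouse and the lowest treated mouse. Fdps was lower in 2 of 3 lanes, with differences from −2.10 to 0.48, and the exception was the lane of I-BET151 mouse 3. Vehicle and naive mice shared only 1 lane, where Mvd differed by 1.83. I-BET151 and naive mice shared 2 lanes, with differences from −2.98 to −1.68 for Idi1, from −1.81 to −1.03 for Sqle and from −1.21 to −0.60 for Hmgcs1. With lane in the model none of the calls in the 3 comparisons held: the difference of I-BET151 from naive was −1.71 for Idi1 (edgeR adjusted p = 0.248), −1.03 for Sqle (edgeR adjusted p = 0.372) and −0.75 for Hmgcs1 (edgeR adjusted p = 0.326).

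Acat2, the cytosolic thiolase that feeds Hmgcs1, differed between I-BET151 and vehicle mice by −0.37 on the log2 scale (edgeR adjusted p = 0.543) and was not called between vehicle and naive mice.

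Past lanosterol, 3 of 10 enzymes on the way to cholesterol fell after I-BET151 relative to vehicle and none rose. Over all tested genes 0.256% were called lower. All 10 enzymes were fitted lower, against 46.1% of all tested genes, with a median of −0.54 on the log2 scale. Msmo1 fell by 1.55 (edgeR adjusted p = 0.0304), Cyp51, the lanosterol demethylase, fell by 1.27 (edgeR adjusted p = 0.0550) and Nsdhl fell by 1.09 (edgeR adjusted p = 0.0258). Relative to naive mice 8 of the 10 fell, against 5.25% of all tested genes called lower. The 4 with the smallest p were Tm7sf2, at −2.08 (edgeR adjusted p = 0.000208), Nsdhl at −1.02 (edgeR adjusted p = 0.00216), Cyp51 at −1.19 (edgeR adjusted p = 0.00644) and Sc5d at −0.70 (edgeR adjusted p = 0.0107). Between vehicle and naive mice 1 of 10 was called, against 7.10% of all tested genes in either direction. Tm7sf2, a sterol reductase, fell by 1.49 (edgeR adjusted p = 0.002) while Mvd rose.

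Among genes of SREBP2 control and sterol uptake, Srebf2, which encodes SREBP2, differed between I-BET151 and vehicle mice by −0.41 (edgeR adjusted p = 0.276). Relative to naive mice, genes of this list that fell included Stard4 at −1.33 (edgeR adjusted p = 0.00544), Insig1, which holds SREBP2 in the endoplasmic reticulum, at −0.92 (edgeR adjusted p = 0.0278) and Srebf2 at −0.40 (edgeR adjusted p = 0.0355). None of these 3 was called between vehicle and naive mice.

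The branches that leave the pathway at farnesyl diphosphate use the product of Fdps for other ends. Of 12 genes for geranylgeranyl, dolichol and ubiquinone synthesis and protein prenylation, 0 were called after I-BET151 relative to vehicle by edgeR, with 1 at an unadjusted p under 0.05 and a median of 0.00 on the log2 scale. Only 0.351% of all tested genes were called in that comparison. Fnta, a farnesyltransferase subunit, was lower than in naive mice in both STAM groups, at −0.52 in vehicle (edgeR adjusted p = 0.0104) and −0.45 in I-BET151 mice (edgeR adjusted p = 0.0143), and Pdss2 was lower in I-BET151 mice at −0.62 (edgeR adjusted p = 0.0248). Of 4 genes of ketone body synthesis, which also uses HMG-CoA but in mitochondria, 0 were called between I-BET151 and vehicle by edgeR, with 0 at an unadjusted p under 0.05. Of this list 3 of 4 were called lower in I-BET151 than in naive mice, against 5.25% of all tested genes. Among them were Bdh1 at −0.86 (edgeR adjusted p = 0.0291) and Acat1 at −0.87 (edgeR adjusted p = 0.0114). All 4 were also fitted lower in vehicle than in naive mice. There Bdh1 was at −0.62 (edgeR adjusted p = 0.140) and Acat1 at −0.65 (edgeR adjusted p = 0.0639), neither of them called. Of 6 targets of the sterol sensor LXR, 0 were called in any of the 3 comparisons by edgeR, with 3 at an unadjusted p under 0.05 between vehicle and naive mice, 0 between I-BET151 and vehicle and 2 between I-BET151 and naive.

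The genes whose pattern over the 12 mice was most like the mean of the 9 enzymes were named by Pearson's r of log2 CPM, as a description. Among the first 10 were Msmo1 with r = 0.979, Nsdhl (0.930), Cyp51 (0.915), Ifit1 (0.900), Cmpk2 (0.884), Stox1 (0.882), Gamt (0.881) and Syvn1 (0.880). Msmo1, Nsdhl and Cyp51 are enzymes of sterol synthesis, whereas Ifit1 and Cmpk2 are known as interferon-induced genes. Among the 9 themselves, r with the mean that includes them ran from 0.741 for Pmvk and 0.758 for Fdps to 0.966 for Sqle. Of those named, Msmo1, Ifit1, Cmpk2 and Gamt were also among the first 10 by Spearman's rho, Cmpk2, Gamt and Syvn1 were no longer among them without I-BET151 mouse 3, and only Msmo1 and Nsdhl remained when values were centred within each group. All these points share the same 12 libraries, their scaling and the differences between the 3 groups.

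Marker genes of the cells in the liver were read beside these results, and their part in them was not tested. The 6 hepatocyte markers were fitted lower in STAM vehicle than in naive mice in 6 of 6, with 0 called by edgeR and 1 at an unadjusted p under 0.05, and their summed level in vehicle mice overlapped that of I-BET151 mice. Alb, the most abundant of the 6, differed between vehicle and naive mice by −0.97 on the log2 scale, and Hnf4a by −0.02. The 5 T cell markers (Cd3e, Cd3d, Cd3g, Trac and Cd8a) summed to 3.24 to 4.60 CPM in vehicle mice and 1.52 to 2.24 CPM in I-BET151 mice, with 5 of 5 fitted lower and 0 called by edgeR, where 4 had an unadjusted p under 0.05. The 4 cholangiocyte markers summed to 11.8 to 16.8 CPM in naive, 13.4 to 17.1 CPM in vehicle and 11.8 to 13.1 CPM in I-BET151 mice. Between I-BET151 and vehicle mice 3 of these 4 were fitted lower and 1 higher, with 0 called by edgeR and 1 at an unadjusted p under 0.05. The 5 macrophage markers summed to 179 to 253 CPM in naive, 293 to 520 in vehicle and 231 to 459 in I-BET151 mice, and the stellate and sinusoidal endothelial sums overlapped across all 3 groups. Markers of exocrine pancreas summed to at most 1.84 CPM in any mouse, and the skeletal muscle markers Acta1, Myh4 and Ckm were at 0 in all naive mice and summed to at most 0.753 CPM in the others.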

How the data were processed

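Liver RNA of 12 mice was sequenced as paired-end reads from a stranded mRNA kit. Per the labels and the study's methods, reads were aligned to mm10 with STAR 2.5.1b, and uniquely mapped reads were kept. The authors deposited raw counts per gene for each mouse. HTSeq is named in the notes but another counter in the deposit, and the strand setting, annotation release and treatment of reads in overlapping genes are not given in the sources used here.

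From these counts, CPM on TMM-scaled library sizes, fold changes and p-values were computed with edgeR 4.0.16 in R 4.3.3 (quasi-likelihood test, 1 fit of all 3 groups, filterByExpr with a minimum count of 10, 16823 genes, Benjamini-Hochberg adjustment over all of them). Log2 CPM used a prior count of 2. Thresholds were 0.05 for vehicle against naive and 0.1 for I-BET151 against vehicle, as in the study's methods, and 0.05 for I-BET151 against naive. Intervals are 95%. DESeq2 1.42.0 and limma 3.58.1 gave alternatives, and the fit was tested on simulated data. Likeness, copies and motifs were computed in Python 3.11.15 with GENCODE vM21 and RefSeq tables of the same build.

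All 9 enzymes were named in pathway order. From the other lists every gene was counted, and those past a threshold were named, at most 4 per list and comparison by smallest p. The 9 enzymes, the lists and the thresholds were chosen with earlier results of these data known. Replicate counts within a group differed by more than sampling noise in every pair (chi-square per degree of freedom 34.6 to 707). Every mouse had at least 34711229 counted reads, and the smallest count of any of the 9 enzymes in a mouse was 106 reads. Results for some genes of the other lists are not reported here.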

Additional observations from a re-analysis of the deposited data

Results flagged for a closer look

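In a group of 4 mice, a mouse was singled out when its gap to the nearest of the other 3 took most of the range of its group. Of 42 groups looked at, 6 held such a mouse, and chance alone singles out about 1 in 20 groups. Idi1 was 2.44 CPM in I-BET151 mouse 4, far below the other 3 treated mice. Fdps was 10.1 CPM in I-BET151 mouse 3, far above the other 3. Pmvk was 15.4 CPM in I-BET151 mouse 2, also above its group. I-BET151 mouse 3 was singled out again by the share of reads on its 10 most abundant genes, 7.95%, and by its TMM factor of 1.61. The mitochondrial share of STAM vehicle mouse 1 was 6.44%, against 5.83% to 5.93% in the other 3 vehicle mice.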

How the results depend on the processing

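I-BET151 against vehicle kept its direction for all 9 enzymes under every alternative, whereas the number called moved from 4 to 8 with DESeq2, 9 with limma-voom sample weights, 8 with DESeq2 without I-BET151 mouse 3, 2 at a threshold of 0.05, and 0 at 0.01, with total counts, with only the 2 groups, with the lane number or with the replicate block. Of all genes, 1.48% were called with DESeq2, 7.16% with sample weights and 8.27% with DESeq2 without I-BET151 mouse 3. The reported fit called 0.351%. The share was 0 with lane, 0.0357% with total counts, 0.048% with only the 2 groups and 0.0594% with the replicate block. Under that block the adjusted p was 0.231 for Hmgcs1, 0.117 for Mvd, 0.231 for Idi1 and 0.132 for Sqle. Same-numbered mice did not deviate together (mean r −0.09 over 12 pairs, −0.35 to 0.09, against 0.03 over 36 other pairs), so the numbers were not taken as pairs. Both the check and the block rest on the numbers in the sample titles, and the names of the deposited tables carry other numbers that no 2 groups share. Leaving out 1 mouse gave 0 to 7 calls. For vehicle against naive the 1 call became 3 with DESeq2, with DESeq2 without I-BET151 mouse 3, with only the 2 groups, with sample weights or at 0.1, 2 with no filter and 0 with lane, and 1 to 3 with 1 mouse left out. The settings that gave 3 also called more of all genes: 10.2% with DESeq2, 23.05% with DESeq2 without I-BET151 mouse 3, 23.95% with only the 2 groups and 33.7% with sample weights, against 7.10% in the reported fit. I-BET151 against naive gave 3 calls, 2 with total counts (Sqle was lost, adjusted p = 0.0614), 4 with DESeq2 or at 0.1, 5 with sample weights, 0 with lane, and 3 to 5 with 1 mouse left out. Of all genes, 20.7% were called there with total counts, 17.8% with DESeq2, 29.0% with sample weights and 0.505% with lane. The reported fit called 15.1%. The fits with lane left few degrees of freedom, and the cause of the other shifts was not tested. Signs turned only where no call stood. In vehicle against naive, Pmvk was 0.21 with total counts, 0.0615 with lane and 0.0118 with sample weights, Idi1 was 0.21 with total counts and 0.30 with lane, and with 1 mouse left out Hmgcs1 ran from −0.0486 to 0.23, Pmvk from −0.16 to 0.0061 and Idi1 from −0.37 to 0.0763. In I-BET151 against naive, total counts gave 0.0369 for Mvk, 0.0118 for Pmvk, 0.44 for Mvd and 0.31 for Lss. Mvd was 0.032 with at least 10 counts in every mouse, 0.0034 with only the 2 groups and 0.11 with lane, and ran from −0.23 to 0.0877 with 1 mouse left out. Fdps was −0.0038 with DESeq2, −0.031 with the replicate block, −0.10 with lane, −0.50 with sample weights and −0.48 with DESeq2 without I-BET151 mouse 3, and ran from −0.49 to 0.22. Scaling by total counts moved the median of all genes by 0.27, 0.11 and 0.39 on the log2 scale in the 3 comparisons as ordered in the report. Over all genes the calls numbered 1195 in vehicle against naive (546 to 3779 with 1 mouse left out, 37 to 5672 otherwise), 59 in I-BET151 against vehicle (13 to 403, 0 to 1287) and 2546 in I-BET151 against naive (1292 to 3731, 85 to 4880). DESeq2 without I-BET151 mouse 3 and the coding length were chosen after seeing the data.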
